A study of Bos taurus with 31 samples.

Results

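The genes described are 9 apolipoproteins (*APOA1*, *APOA2*, *APOA4*, *APOA5*, *APOB*, *APOC3*, *APOE*, *APOH* and *APOM*) and *MTTP*, the lipid transfer protein that loads *APOB* with fat. They were chosen by name for their part in hepatic lipoproteins or their assembly, with earlier results of these data known. They are 10 of the 24616 genes in the deposited table of raw read counts, each with 1 Ensembl identifier. Liver of lactating German Holstein cows was sampled by puncture biopsy after 16 weeks of feeding, and 1 mRNA library was sequenced per cow. Rations differed in 2 factors. Glyphosate-contaminated rations (GLY) contained peas, wheat grain and straw from fields treated before harvest with the formulation Roundup Record, and control rations (CON) did not. The concentrate feed proportion (CFP) was 60% of dry matter in the high groups (HC) and 30% in the low groups (LC). The 4 groups are CONHC (8 cows), CONLC (8 cows), GLYHC (8 cows) and GLYLC (7 cows, since the sample of 1 cow was lost). All cows ate mixed rations of maize silage, grass silage, straw and concentrate. The treatment is a commercial formulation with a surfactant and not glyphosate alone, and the CFP groups also differ in their silage share.

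Lipoproteins carry triglyceride and cholesterol through the blood in particles held together by apolipoproteins. In the hepatocyte, MTTP adds lipid to the growing APOB chain, and 1 APOB molecule stays with each very low density lipoprotein (VLDL) particle until the particle is cleared. APOA1 and APOA2 form high density lipoprotein (HDL), while APOC3 and APOA5 act in opposite directions on triglyceride removal by lipoprotein lipase. Ruminant liver is known to export VLDL slowly compared with other mammals, so that fat can accumulate in the liver when much fatty acid arrives.

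Assigned reads ranged from 11675775 to 36675542 per cow. The group medians were 15640000 in CONHC, 22530000 in CONLC, 21740000 in GLYHC and 20720000 in GLYLC. No difference in these totals between groups was detected (4 exact two-sided permutation tests, p = 0.192 to 0.567, n = 8 against 8 or 8 against 7, adjusted p = 0.373 to 0.567). This does not show that the groups had the same depth. The 10 genes took between 1.14% and 1.65% of a cow's assigned reads (mean 1.43%). All 10 passed the minimum of 20 reads summed over the 31 cows and were tested among 15916 genes. Levels are given as CPM, read counts scaled to a common library size with edgeR's TMM factors. Since CPM is not divided by transcript length, levels are compared between cows and never between genes. Here a call needs p under 0.05 in edgeR's quasi-likelihood test and, after Benjamini-Hochberg adjustment over all tested genes, p under 0.1.

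GLYLC cow 912 stood apart. The hepatocyte markers (*ALB*, *TTR*, *TF*, *SERPINA1*, *FGB*, *AHSG*, *HP* and *CPS1*) summed to 140838 CPM in this cow, the lowest of 31, against 145153 to 200268 CPM in the other 30 cows, so all biopsies held abundant liver transcripts. Of 12 markers of intestinal epithelium 10 were in the table, and they summed to 618 CPM in cow 912 against 38.3 to 110 CPM in the other cows. *FABP2*, the intestinal fatty acid binding protein, was at 232 CPM in cow 912 and at most 0.164 CPM elsewhere, with 24 of the other 30 cows at 0. *SI*, the sucrase-isomaltase of the brush border, was at 3.70 CPM in cow 912 and at 0 in all 30 others. *LGALS4* was at 76.7 CPM against at most 36.0 CPM elsewhere, and *CDH17*, at 72.6 CPM, did not exceed the 82.4 CPM reached elsewhere. The medians of *LGALS4* and *CDH17* in the other cows were 23.7 and 41.0 CPM, so most of the sum there came from them. Lymphocyte markers also peaked in cow 912, with 196 CPM against 17.6 to 86.6 CPM elsewhere. Intestine is, besides liver, a main site of *APOA1*, *APOA4*, *APOB* and *MTTP* transcription. The part of these transcripts in the results was not tested, and printed fold changes that cow 912 moves by over 1.5 times are given with and without it. Stellate cell and fibroblast markers summed to 2317 CPM in CONLC cow 103, to 513 CPM in CONLC cow 166 and to between 107 and 336 CPM in the other cows. Over all cows the summed markers ranged from 398 to 1456 CPM for macrophages, from 220 to 461 CPM for endothelium, from 17.3 to 65.8 CPM for bile duct (4 of 5 markers in the table) and from 0.388 to 9.02 CPM for epidermis. In bulk tissue, fewer cells of a type and less RNA per cell cannot be told apart.

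**Figure D1:**
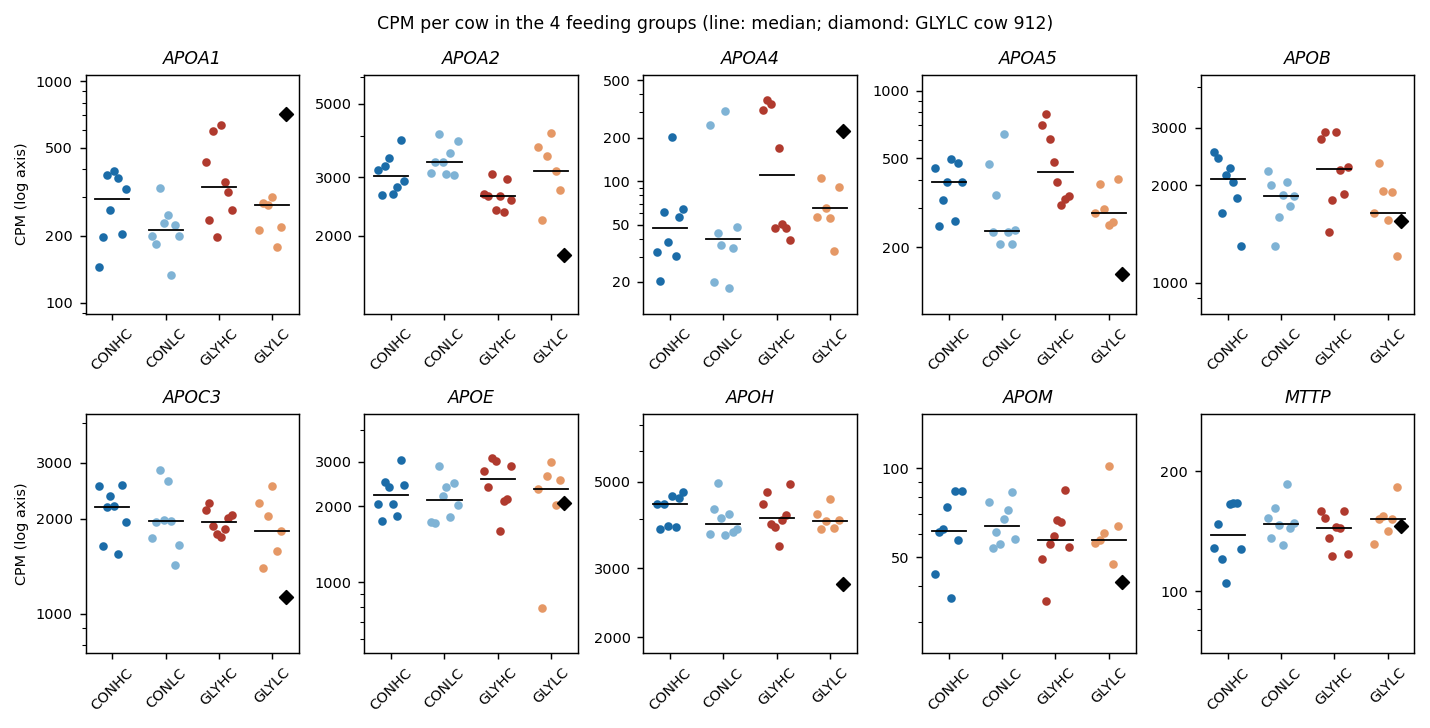
Level of each of the 10 genes in every cow by feeding group (CPM on a log axis; points are cows, lines are group medians, and the black diamond is GLYLC cow 912). The groups overlap for every gene, *APOA4* spreads from 18.1 to 366 CPM, and cow 912 has the highest *APOA1* and the lowest *APOA2*, *APOA5*, *APOC3* and *APOH* of the 31 cows.

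None of the 10 genes was called in any comparison. For HC against LC, 0 of 10 were called in CON groups, where 0% of the 15916 tested genes were called, and 0 of 10 in GLY groups, where 0.201% were called. For HC against LC over all cows, with treatment as a covariate, 0 of 10 were called against 1.45% of all genes. For GLY against CON, 0 of 10 were called in HC groups (0% of all genes), in LC groups (0.0628%) and over all cows with CFP as a covariate (0%). The interaction of GLY with CFP also gave 0 of 10 (0%). DESeq2 gave 0 of 10 in all 7 comparisons as well. At an unadjusted p under 0.05, 2 of the 10 genes passed for CFP in GLY groups, 2 for CFP over all cows, 1 for GLY in HC groups, 2 for GLY over all cows and 0 in the other 3 comparisons. Over all tested genes the corresponding shares were 12.5%, 13.7%, 2.92% and 3.92%, and in the other 3 they were 5.96% (CFP in CON groups), 5.65% (GLY in LC groups) and 4.21% (interaction). Each group serves in more than 1 of these comparisons, so they are not independent of each other.

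**Figure D2:**
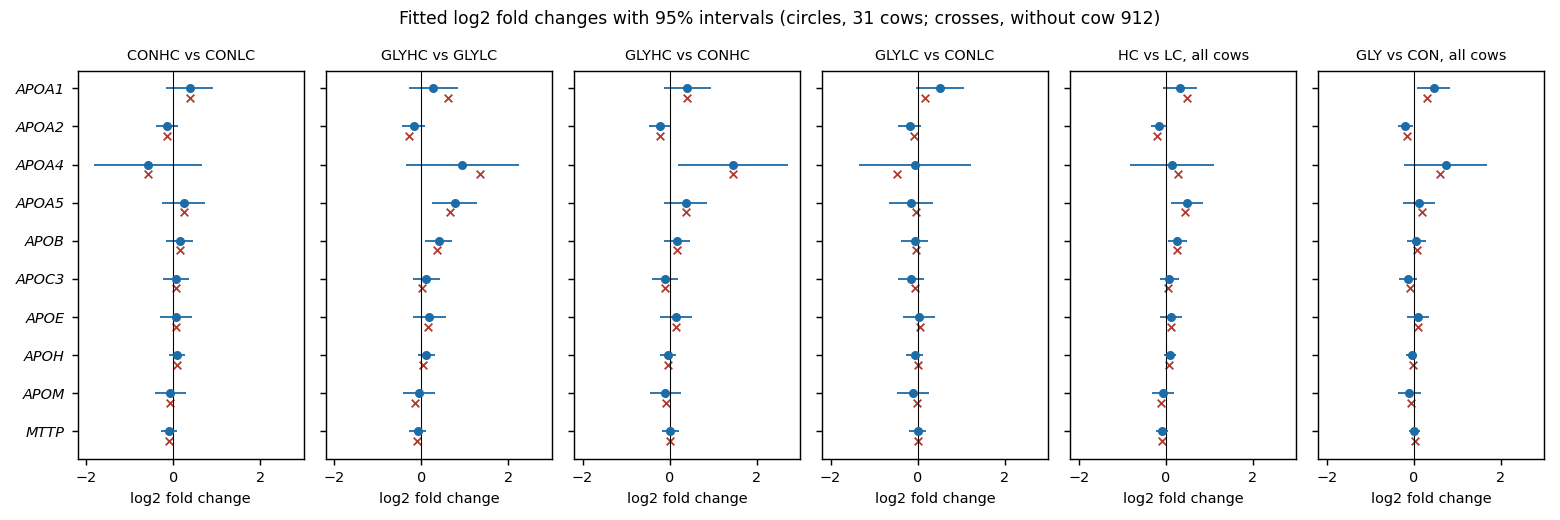
Log2 fold changes of the 10 genes in 6 comparisons from edgeR's quasi-likelihood fit (circles with 95% intervals, all 31 cows; crosses, without GLYLC cow 912; the vertical line is no difference). The widest intervals are those of *APOA4*, from 0.19 to 2.72 for GLYHC against CONHC, and the narrowest those of *APOH* and *MTTP*.

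*APOB* (ENSBTAG00000008505) encodes the structural protein of VLDL. It ranged from 1303 to 2520 CPM in CONHC (median 2091), from 1300 to 2202 CPM in CONLC (median 1856), from 1431 to 2916 CPM in GLYHC (median 2246) and from 1207 to 2340 CPM in GLYLC (median 1640). In GLYHC 7 of 8 cows lay above the GLYLC median and 3 lay above every GLYLC cow, yet the groups overlapped. The means were 2274 ± 557 CPM in GLYHC (SD, n = 8) and 1732 ± 360 CPM in GLYLC (SD, n = 7), a log2 fold change of 0.39 (SE 0.16) with an adjusted p of 0.286 in edgeR's quasi-likelihood test. In CON groups the means were 2017 ± 409 and 1822 ± 283 CPM (SD, n = 8 each), with a log2 fold change of 0.15 (SE 0.15, adjusted p = 0.984). Over all cows the log2 fold change of HC over LC was 0.27 (SE 0.11, unadjusted p = 0.0200, adjusted p = 0.255), which corresponds to a 95% interval from 1.03-fold to 1.40-fold. For GLY against CON over all cows it was 0.05 (SE 0.11), with an interval from 0.891-fold to 1.21-fold.

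*MTTP* (ENSBTAG00000011944), the partner of *APOB* in the endoplasmic reticulum, was even across cows. It ranged from 105 to 186 CPM over all cows, with group means of 141 ± 23.8 CPM in CONHC, 151 ± 17.1 in CONLC, 143 ± 14.3 in GLYHC and 151 ± 15.7 in GLYLC (SD, n = 8, 8, 8 and 7). For HC against LC over all cows the log2 fold change was −0.09 (SE 0.07, adjusted p = 0.587 in edgeR's quasi-likelihood test), with an interval from 0.856-fold to 1.03-fold. GLY against CON gave 0.01 (SE 0.07), with an interval from 0.920-fold to 1.11-fold, and 0.02 (SE 0.07) without cow 912. The intervals bound the size of a difference and do not show that the groups were alike. Cow 912 was not apart from its group for *MTTP* (146 CPM against a median of 152 CPM in the other 6 GLYLC cows).

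*APOA1* (ENSBTAG00000002258) encodes the main protein of HDL. It ranged from 145 to 393 CPM in CONHC (median 294), from 134 to 330 CPM in CONLC (median 213), from 199 to 632 CPM in GLYHC (median 333) and from 178 to 714 CPM in GLYLC (median 275). The GLYLC maximum was cow 912, and the other 6 GLYLC cows lay between 178 and 300 CPM. GLYHC held 3 cows above every CONHC cow (131, 117 and 32), and CONHC held 3 cows above every CONLC cow. For GLY against CON over all cows the means were 346 and 251 CPM, a log2 fold change of 0.46 (SE 0.19, unadjusted p = 0.0206, adjusted p = 1.0 in edgeR's quasi-likelihood test). Without cow 912 it was 0.30 (SE 0.16, unadjusted p = 0.0766). In LC groups alone the log2 fold change of GLY over CON was 0.51 (SE 0.27) with cow 912 and 0.17 (SE 0.24) without it. For HC against LC the same cow acted in the other direction. In GLY groups the log2 fold change of *APOA1* was 0.27 (SE 0.28) with cow 912 and 0.62 (SE 0.24, unadjusted p = 0.0165, adjusted p = 0.518) without it, and over all cows it was 0.33 (SE 0.19) and 0.49 (SE 0.16, unadjusted p = 0.00564, adjusted p = 0.192). None of these passed the adjusted threshold.

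*APOA2* (ENSBTAG00000009212), the second protein of HDL, had fold changes below 0 for HC against LC and for GLY against CON, none of them called. It ranged from 2651 to 3881 CPM in CONHC (median 3038), from 3059 to 4065 CPM in CONLC (median 3332), from 2364 to 3079 CPM in GLYHC (median 2638) and from 1750 to 4080 CPM in GLYLC (median 3144). All but 1 of the GLYHC cows lay below the CONHC median, and 5 lay below every CONHC cow. The GLYHC group was narrow, with 2664 ± 252 CPM (SD, n = 8) against 3095 ± 419 CPM in CONHC (SD, n = 8) and a log2 fold change of −0.22 (SE 0.12, adjusted p = 1.0 in edgeR's quasi-likelihood test). Over all cows GLY against CON gave −0.20 (SE 0.09, unadjusted p = 0.0287, adjusted p = 1.0) and HC against LC −0.16 (SE 0.09, unadjusted p = 0.0715, adjusted p = 0.416). Without cow 912, which had the lowest value of all 31 cows, HC against LC gave −0.21 (SE 0.07, unadjusted p = 0.00922, adjusted p = 0.231) and GLY against CON −0.15 (SE 0.07). In GLY groups the log2 fold change of HC over LC went from −0.18 (SE 0.13) to −0.28 (SE 0.11, unadjusted p = 0.0161, adjusted p = 0.518) when cow 912 was left out. *APOA1* and *APOA2* thus had fold changes of opposite sign in each of the HC against LC and GLY against CON comparisons.

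*APOM* (ENSBTAG00000008833), the carrier of sphingosine 1-phosphate on HDL, ranged from 35.5 to 102 CPM. Group means were 62.7 ± 17.4 CPM in CONHC, 65.8 ± 10.8 in CONLC, 58.7 ± 14.3 in GLYHC and 61.1 ± 19.7 in GLYLC (SD, n = 8, 8, 8 and 7), and no pair of groups was separated. Its log2 fold change was −0.06 (SE 0.12) for HC against LC and −0.10 (SE 0.12) for GLY against CON over all cows, with adjusted p of 0.887 and 1.0 in edgeR's quasi-likelihood test. The intervals reached from 0.803-fold to 1.14-fold and from 0.782-fold to 1.11-fold. Without cow 912 the log2 fold changes were −0.10 (SE 0.12) and −0.06 (SE 0.12).

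*APOA5* (ENSBTAG00000019764) promotes triglyceride clearance by lipoprotein lipase and is made in the liver. With all 31 cows in the fit it had the smallest adjusted p of the 10 genes, while without cow 912 those of *APOA1* and *APOA2* for HC against LC were smaller. It ranged from 250 to 497 CPM in CONHC (median 391), from 206 to 641 CPM in CONLC (median 237), from 308 to 787 CPM in GLYHC (median 436) and from 152 to 403 CPM in GLYLC (median 284). All 8 GLYHC cows lay above the GLYLC median and 4 lay above every GLYLC cow. In CONLC 5 of 8 cows lay between 206 and 239 CPM, while cow 169 reached 641 CPM and cow 60 reached 472 CPM. In GLY groups the means were 493 ± 184 CPM in HC (SD, n = 8) and 290 ± 85.1 CPM in LC (SD, n = 7), a log2 fold change of 0.76 (SE 0.25, unadjusted p = 0.00513, adjusted p = 0.215 in edgeR's quasi-likelihood test). In CON groups they were 381 ± 94.4 and 322 ± 157 CPM (SD, n = 8 each), with a log2 fold change of 0.24 (SE 0.24, adjusted p = 0.984). The difference between these 2 fold changes, which is the interaction, was 0.52 (SE 0.35, adjusted p = 0.999). Over all cows HC against LC gave 0.49 (SE 0.18, unadjusted p = 0.00986, adjusted p = 0.199), or 1.09-fold to 1.81-fold at 95%. Without CONLC cow 169 this became 0.61 (SE 0.16) with an adjusted p of 0.0665, which is a call, and without GLYLC cow 912 it became 0.43 (SE 0.17) with an adjusted p of 0.303. GLY against CON over all cows gave 0.12 (SE 0.18), from 0.845-fold to 1.40-fold, and 0.19 (SE 0.17) without cow 912.

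*APOA4* (ENSBTAG00000019770) is an intestinal and hepatic apolipoprotein of triglyceride-rich particles that is known to be induced in fatty mouse liver. It was the most variable of the 10 genes from cow to cow. In 23 cows it lay between 18.1 and 105 CPM, and in the other 8 cows between 171 and 366 CPM, with no cow between. The 8 cows were GLYHC cows 32 (313 CPM), 37 (366 CPM), 117 (345 CPM) and 131 (171 CPM), CONLC cows 60 (247 CPM) and 169 (305 CPM), CONHC cow 134 (202 CPM) and GLYLC cow 912 (223 CPM). The other 4 GLYHC cows lay between 39.0 and 50.7 CPM, so that the GLYHC group fell into an upper and a lower set of 4 cows each. Group medians were 47.2 CPM in CONHC, 39.7 in CONLC, 111 in GLYHC and 64.8 in GLYLC. For GLY against CON in HC groups the means were 172 ± 147 and 62.9 ± 58.3 CPM (SD, n = 8 each), and the log2 fold change was 1.46 (SE 0.62, unadjusted p = 0.0257) with an adjusted p of 1.0 in edgeR's quasi-likelihood test. For HC against LC the log2 fold change was 0.94 (SE 0.64) in GLY groups, 1.35 (SE 0.66) there without cow 912, and −0.58 (SE 0.61) in CON groups. The interaction was 1.52 (SE 0.88, adjusted p = 0.999), and 1.93 (SE 0.89, adjusted p = 1.0) without cow 912. In LC groups the log2 fold change of GLY over CON was −0.06 (SE 0.63), and it went to −0.47 (SE 0.65) without cow 912 and to 0.49 without CONLC cow 169. HC against LC over all cows gave 0.15 (SE 0.47), with an interval from 0.570-fold to 2.15-fold, and 0.28 (SE 0.50) without cow 912.

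*APOC3* (ENSBTAG00000012398), which slows triglyceride removal, ranged from 1541 to 2546 CPM in CONHC (median 2179), from 1427 to 2855 CPM in CONLC (median 1958), from 1747 to 2242 CPM in GLYHC (median 1948) and from 1130 to 2530 CPM in GLYLC (median 1831). Its lowest value was again cow 912, and the lowest of the others was 1393 CPM in GLYLC cow 102. Over all cows the log2 fold change was 0.08 (SE 0.10, adjusted p = 0.788 in edgeR's quasi-likelihood test) for HC against LC and −0.13 (SE 0.10, adjusted p = 1.0) for GLY against CON. The intervals were 0.917-fold to 1.23-fold and 0.790-fold to 1.06-fold. Without cow 912 the log2 fold changes were 0.04 (SE 0.10) and −0.08 (SE 0.10).

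*APOE* (ENSBTAG00000010123) is the ligand by which remnant particles are taken up through receptors of the LDL receptor family. It ranged from 1755 to 3043 CPM in CONHC (median 2216), from 1710 to 2892 CPM in CONLC (median 2111), from 1602 to 3085 CPM in GLYHC (median 2559) and from 791 to 2999 CPM in GLYLC (median 2342). The 791 CPM belonged to GLYLC cow 102, and the next lowest of all cows had 1602 CPM. Over all cows the log2 fold change was 0.12 (SE 0.13, adjusted p = 0.745 in edgeR's quasi-likelihood test) for HC against LC and 0.09 (SE 0.13, adjusted p = 1.0) for GLY against CON. The intervals were 0.908-fold to 1.30-fold and 0.890-fold to 1.27-fold. Without cow 102 the log2 fold changes were 0.050 and 0.16.

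*APOH* (ENSBTAG00000001915), or beta-2-glycoprotein I, binds anionic phospholipid in plasma and is only loosely tied to lipoproteins. It varied least of the 10 genes within groups. It ranged from 3788 to 4702 CPM in CONHC, from 3643 to 4973 CPM in CONLC, from 3427 to 4922 CPM in GLYHC and from 2732 to 4511 CPM in GLYLC, where cow 912 held the minimum and the next cow had 3782 CPM. The log2 fold change was 0.10 (SE 0.06, adjusted p = 0.545 in edgeR's quasi-likelihood test) for HC against LC over all cows and −0.05 (SE 0.06, adjusted p = 1.0) for GLY against CON. The intervals of 0.976-fold to 1.17-fold and 0.882-fold to 1.06-fold are the tightest of the set together with those of *MTTP*. Without cow 912 the log2 fold changes were 0.06 (SE 0.06) and −0.01 (SE 0.06).

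As a set, 7 of the 10 genes had a fold change above 0 for HC against LC over all cows, with a median log2 fold change of 0.11, beside −0.01 over all 15916 genes. For GLY against CON over all cows 6 were above 0, with a median of 0.03 beside 0.00. In single comparisons the medians were 0.06 for CFP in CON groups, 0.15 for CFP in GLY groups, 0.08 for GLY in HC groups and −0.07 for GLY in LC groups (−0.03 without cow 912).

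Cow-to-cow differences within a feeding group were larger than most of these group differences. The SD of log2 CPM within groups, pooled over the 4 groups, was 1.26 for *APOA4*, 0.55 for *APOA1*, 0.50 for *APOA5*, 0.39 for *APOE*, 0.37 for *APOM*, 0.31 for *APOB*, 0.30 for *APOC3*, 0.25 for *APOA2*, 0.18 for *MTTP* and 0.17 for *APOH*. Among the 1050 genes with a mean of at least 100 CPM the median SD was 0.24. The SD of *APOA4* exceeded that of 99.0% of them, with 9 genes above it, while those of *APOA1* and *APOA5* exceeded 93.2% and 92.0%. *MTTP* and *APOH* exceeded 24.6% and 21.4%. The *MTTP* transcript was thus steadier between cows than that of the median gene, while 3 apolipoprotein transcripts were among the less steady of this class. The mean of *APOM* was 62.1 CPM, below the range of this class.

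**Figure D3:**
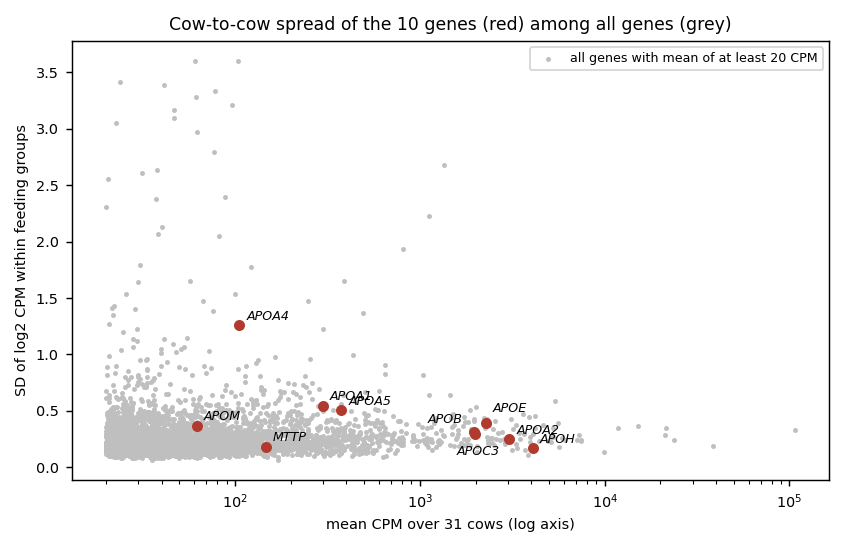
SD of log2 CPM within feeding groups (vertical axis) against mean CPM over 31 cows (horizontal log axis) for the 10 genes in red and all genes with a mean of at least 20 CPM in grey. *APOA4* stands at 1.26, above most genes of its abundance, and *MTTP* (0.18) and *APOH* (0.17) lie below the median SD of 0.24 of genes with at least 100 CPM.

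Cow 912 showed how the 10 genes split in a single biopsy. Relative to the median of the other 6 GLYLC cows, *APOA4* was at 3.68 times and *APOA1* at 2.89 times. *APOA5* was at 0.522, *APOA2* at 0.528, *APOC3* at 0.584, *APOH* at 0.688 and *APOM* at 0.700 times that median, with each of these 5 below all the other 6 cows. *MTTP* (0.962), *APOB* (0.878) and *APOE* (0.843) lay inside the range of the other 6 cows. The summed intestinal markers given above were also highest in this cow, and their part was not tested.

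**Figure D4:**
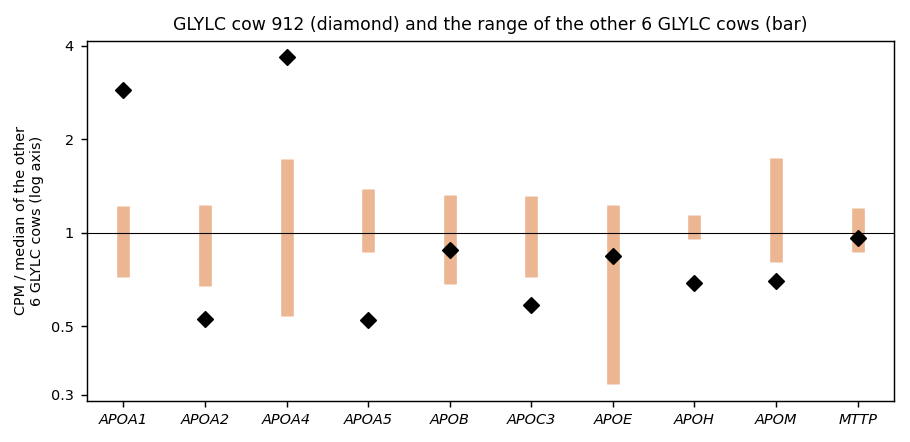
Level of each gene in GLYLC cow 912 (diamond) and the range of the other 6 GLYLC cows (bar), both divided by the median of those 6 cows (log axis). *APOA1* (2.89) and *APOA4* (3.68) lie above the bars, *APOA2*, *APOA5*, *APOC3*, *APOH* and *APOM* below them, and *APOB*, *APOE* and *MTTP* inside.

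Whether the genes varied together between cows of the same group was tested on log2 CPM centred on the feeding group means, with 45 pairs over 31 cows, cows permuted within groups, and Benjamini-Hochberg adjustment over the 45 pairs. Of these, 24 pairs had a positive and 21 a negative Pearson r, the median r was 0.01, and 7 pairs passed an adjusted p under 0.05. How large a share of all gene pairs would pass the same test was not computed. The count of called pairs therefore does not set these genes apart from other genes. *APOC3* and *APOH* rose and fell together with r = 0.702 (Spearman's rho 0.665, permutation p = 3e-05, adjusted p = 0.00135), and without the 2 cows farthest from the *APOC3* median r was 0.556. *APOC3* and *APOA2* gave r = 0.710 (rho 0.599, permutation p = 0.00020, adjusted p = 0.00416), and 0.562 without the 2 farthest cows. *APOA4* and *APOA5* gave r = 0.666 (rho 0.658, permutation p = 0.00037, adjusted p = 0.00416), and 0.548 without the 2 farthest cows, which means that the cows with most *APOA4* also tended to have most *APOA5*. Cow 912 departed from this, with much *APOA4* and the least *APOA5*, and it was not the only such cow. GLYHC cow 131, for example, had 171 CPM of *APOA4* but 393 CPM of *APOA5*, below the GLYHC mean of 493 CPM. *APOB* and *APOE* went in opposite directions, with r = −0.601 (rho −0.616, permutation p = 0.00037, adjusted p = 0.00416), and −0.620 without the 2 farthest cows. These 4 relations passed with each cow left out in turn, and by rho their adjusted permutation p were between 0.00270 and 0.0172.

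The other 3 pairs depended on single cows, and by rho their adjusted permutation p were 0.0845 (*APOA2* with *APOH*), 0.0180 (*APOA1* with *APOA4*) and 0.0472 (*APOA5* with *APOC3*). *APOA2* and *APOH* gave r = 0.587 (rho 0.436, permutation p = 0.00256, adjusted p = 0.0230), which fell to 0.304 without the 2 farthest cows and was not called without GLYLC cow 912 (r = 0.360, adjusted p = 0.151) or CONLC cow 145 (adjusted p = 0.0658). *APOA1* and *APOA4* gave r = 0.510 (rho 0.555, permutation p = 0.00380, adjusted p = 0.0285), and 0.460 without the 2 farthest cows. This pair was not called without cow 912 (r = 0.456, adjusted p = 0.125), and it just missed the threshold without CONLC cow 259, GLYHC cow 117 or GLYLC cow 544 (adjusted p = 0.0502 to 0.0506). *APOA5* and *APOC3* gave r = 0.502 (rho 0.485, permutation p = 0.00558, adjusted p = 0.0359), and 0.343 without the 2 farthest cows. Their call was lost in 13 of 31 leave-one-out runs, with an adjusted p of up to 0.151 without cow 912. *MTTP* and *APOM* were in none of the 7 pairs.

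**Figure D5:**
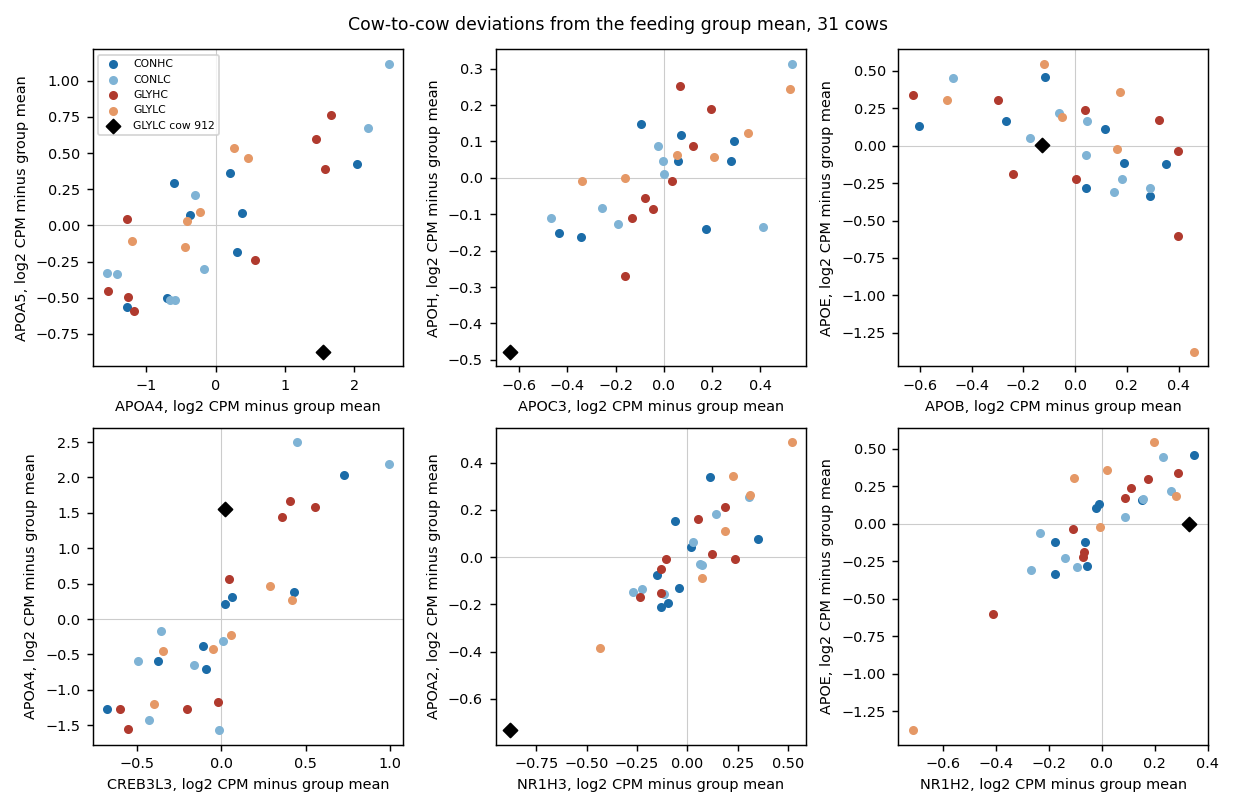
Deviation of each cow from its feeding group mean in log2 CPM for 3 pairs of the 10 genes (upper row) and 3 pairs of a gene with a transcriptional regulator (lower row), 31 cows coloured by group, GLYLC cow 912 as a black diamond. The pairs *APOA4* with *APOA5* (r = 0.666), *APOC3* with *APOH* (0.702), *APOA4* with *CREB3L3* (0.835), *APOA2* with *NR1H3* (0.891) and *APOE* with *NR1H2* (0.860) slope upwards, and *APOB* with *APOE* (−0.601) slopes downwards.

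*APOA1*, *APOC3*, *APOA4* and *APOA5* are neighbours in RefSeq's annotation of the bovine assembly ARS-UCD2.0, on chromosome 15, and the spans of *APOA4*, *APOC3* and *APOA1* overlap there. The other genes lie on chromosomes 3 (*APOA2*), 6 (*MTTP*), 11 (*APOB*), 18 (*APOE*), 19 (*APOH*) and 23 (*APOM*, whose span overlaps *BAG6*). Within the chromosome 15 group *APOA4* with *APOA5* passed with every cow left out, *APOA1* with *APOA4* and *APOA5* with *APOC3* passed only with some, and the other 3 of its 6 pairs were not called. The libraries were made with a stranded kit, but whether counting used the strand is not given in the sources used here, so reads of overlapping genes may not be fully separated.

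The 20 transcriptional regulators of lipoprotein genes that were tested among the 15916 genes were set against the 10 genes in the same way. This was added after the values had been seen and gave 200 relations, of which 18 passed an adjusted p under 0.05 over the 200 (16 positive and 2 negative). The share of all genes that would pass the same test was not computed, so the count does not set regulators apart from other genes. Except for *APOA2*, each of the 10 genes had a higher r with some gene outside this list than with any of the 20 regulators. *CREB3L3*, a liver transcription factor held in the endoplasmic reticulum membrane and known to activate *APOA4* and *APOA5* in mice, followed *APOA4* with r = 0.835 (rho 0.851, permutation p = 1e-05, the smallest the permutations can give, adjusted p = 0.000667), and r was 0.783 without the 2 farthest cows and 0.861 without cow 912. With *APOA5* it gave r = 0.709 (rho 0.699, permutation p = 2e-05, adjusted p = 0.00100), and 0.679 without the 2 farthest cows. *PPARGC1A*, the fasting-induced coactivator, gave r = 0.690 with *APOA5* (rho 0.672, permutation p = 8e-05, adjusted p = 0.00267, 0.622 without the 2 farthest cows) and 0.587 with *APOA4* (rho 0.552, permutation p = 0.00203, adjusted p = 0.0271, 0.466 without the 2 farthest cows). *CREB3L3* itself was not called, with a log2 fold change of 0.11 (SE 0.15) for HC against LC and 0.21 (SE 0.15) for GLY against CON over all cows, and adjusted p of 0.821 and 1.0 in edgeR's quasi-likelihood test.

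The liver X receptors, which sense oxysterols, were each called with some of the genes. *NR1H3* (LXR alpha) followed *APOA2* with r = 0.891 (rho 0.827, permutation p = 1e-05, adjusted p = 0.000667), and 0.792 without the 2 farthest cows or 0.820 without cow 912. *NR1H2* (LXR beta) followed *APOE* with r = 0.860 (rho 0.795, permutation p = 1e-05, adjusted p = 0.000667), and 0.731 without the 2 farthest cows or 0.896 without cow 912. *NR1H2* went against *APOB* with r = −0.582 (rho −0.628, permutation p = 0.00093, adjusted p = 0.0145, −0.476 without the 2 farthest cows). *NR1H3* was also called with *APOC3* (r = 0.639, rho 0.531) and *APOH* (r = 0.672, rho 0.552), with r of 0.444 and 0.433 without the 2 farthest cows, but without cow 912 these 2 relations gave adjusted p of 0.0662 and 0.0557. The crossed relations were not called, with r = 0.477 (rho 0.456, 0.567 without the 2 farthest cows) for *APOE* with *NR1H3* and 0.254 (rho 0.263, 0.107 without the 2 farthest cows) for *APOA2* with *NR1H2*. Without cow 912 they gave 0.636 (adjusted permutation p = 0.0551) and 0.562 (adjusted permutation p = 0.0557), and no difference between the receptors was tested.

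*APOB* was called with more regulators than any of the other 9 genes. It followed *PPARA*, the fatty acid receptor, with r = 0.734 (rho 0.760, permutation p = 3e-05, adjusted p = 0.00120, 0.662 without the 2 farthest cows), and also *PROX1* (r = 0.586, rho 0.644), *RORA* (r = 0.560, rho 0.654) and *NR5A2* (r = 0.508, rho 0.532), with adjusted permutation p of 0.0145, 0.0278 and 0.0451 and r of 0.581, 0.520 and 0.493 without the 2 farthest cows. *RXRA*, the common partner of nuclear receptors, was called with *APOE* (r = 0.635, rho 0.595), *APOC3* (r = 0.616, rho 0.629) and *APOA5* (r = 0.537, rho 0.593), the last not without cow 912 (adjusted p = 0.0747). Without the 2 farthest cows these r were 0.562, 0.480 and 0.658. *NR1H4*, the bile acid receptor, went against *APOM* (r = −0.565, rho −0.518), with r of −0.489 without the 2 farthest cows. *APOA1* and *MTTP* were called with none of the 20. By rho, 17 of the 18 relations had an adjusted permutation p under 0.05, the exception being *APOC3* with *NR1H3* (0.0547). Without cow 912, 17 relations passed, of which 15 were among the 18.

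Measures of the library were tested in the same way, also after the values had been seen, with 30 relations over 3 measures. *APOB* fell as the share of reads from 81 ribosomal protein genes rose (r = −0.626, rho −0.673, permutation p = 0.00060, adjusted p = 0.00610, −0.584 without the 2 farthest cows). That share was between 1.73% and 2.61% of reads. *APOA5* gave r = −0.464 with it (rho −0.430, adjusted permutation p = 0.0789, −0.544 without the 2 farthest cows) and *APOE* 0.398 (rho 0.363, adjusted permutation p = 0.0966, 0.425 without the 2 farthest cows), neither of them called. The summed hepatocyte markers followed *APOC3* (r = 0.708, rho 0.57, adjusted permutation p = 0.00600), *APOH* (r = 0.616, rho 0.514, adjusted permutation p = 0.00610) and *APOA5* (r = 0.528, rho 0.514, adjusted permutation p = 0.0316), with r of 0.579, 0.401 and 0.463 without the 2 farthest cows. Without cow 912 only *APOB* with ribosomal protein reads (r = −0.623) and *APOC3* with hepatocyte markers (r = 0.632) were called, each with an adjusted p of 0.0210. No gene was called with the number of assigned reads. The part of these measures in the relations among the 10 genes was not tested.

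Over the 10135 other named genes with a mean of at least 2 CPM, the 2 with the highest Pearson r to each gene over the 31 cows are given. This is a description with no test, and all genes of a cow come from the same library. *APOE* was closest to *TPGS1* (0.936) and the ribosomal protein gene *RPS28* (0.931), *APOA2* to *NR1H3* (0.891) and *ALKBH2* (0.865), and *APOA4* to *SEC16A* (0.885), an organizer of endoplasmic reticulum exit sites, and the adiponectin receptor *ADIPOR2* (0.845). *APOA5* was closest to *THYN1* (0.883) and *SLC6A11* (0.824), *APOC3* to *MGC127055* (0.875) and *CYB5R3* (0.825), and *APOB* to *PREPL* (0.863) and the clathrin adaptor subunit *AP2B1* (0.839). *APOH* was closest to *FXYD1* (0.809) and *EBP* (0.774), a sterol isomerase of cholesterol synthesis, *APOM* to *PRIM2* (0.796) and *CENPS* (0.750), and *APOA1* to *MORF4L2* (0.766) and *ARF1* (0.752). *MTTP* had the weakest likeness over the 31 cows, with *DDX23* (0.696) and the bile canalicular transporter *ABCC2* (0.670). Without cow 912 the r of these pairs were between 0.660 and 0.938. *APOA1* then had the lowest (0.669 and 0.660), and *MTTP* gave 0.732 and 0.689.

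The wider pathway was read from 6 lists. Of the other apolipoproteins and lipoprotein-bound proteins 12 table rows were tested (11 genes, with *APOL3* in 2 rows). Of these 1 was called, in HC against LC over all cows, where 1.45% of all tested genes were called. This was *APOF*, a modulator of cholesteryl ester transfer, with 474 CPM in HC and 377 CPM in LC cows, a log2 fold change of 0.33 (SE 0.09) and an adjusted p of 0.0958 in edgeR's quasi-likelihood test. The call sat at the threshold, since it was lost in 24 of 31 leave-one-out runs (adjusted p 0.0635 to 0.150). *CLU* had 2544 CPM in HC and 2183 CPM in LC cows over all groups, with a log2 fold change of 0.22 (SE 0.08, adjusted p = 0.176). *APOO* gave −0.26 (SE 0.14, adjusted p = 1.0) for GLY against CON, where 5 of the 12 rows were above 0.

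Of the 20 regulators tested, 1 was called, again in HC against LC over all cows, where 1.45% of all tested genes were called. This was *NR2F1*, an orphan nuclear receptor, with 2.04 CPM in HC and 2.99 CPM in LC cows, a log2 fold change of −0.54 (SE 0.15) and an adjusted p of 0.0918 in edgeR's quasi-likelihood test, lost in 22 of 31 leave-one-out runs (adjusted p 0.0360 to 0.151). *NR1H4* gave −0.21 (SE 0.10, adjusted p = 0.332), and for GLY against CON *SREBF2*, the master regulator of cholesterol synthesis genes, gave −0.17 (SE 0.06, unadjusted p = 0.00668, adjusted p = 0.921).

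None of the 17 tested genes of particle assembly and export was called. For HC against LC over all cows 10 were above 0, with a median log2 fold change of 0.02 beside −0.01 over all tested genes. For GLY against CON the median was 0.08 beside 0.00, with 15 above 0 (the share of all genes above 0 was not computed). Their smallest p were those of *SOAT2* (0.33, SE 0.19) and *MIA3* (0.15, SE 0.08), a cargo receptor for bulky particles, for HC against LC, and of the coat GTPase *SAR1A* (0.16, SE 0.08) for GLY against CON. None of the 7 tested genes of HDL formation was called. *PLTP*, the phospholipid transfer protein, gave 0.43 (SE 0.18, adjusted p = 0.255 in edgeR's quasi-likelihood test) and the cholesterol exporter *ABCG1* 0.51 (SE 0.23, adjusted p = 0.315) for HC against LC. *PLTP* gave 0.29 (SE 0.18) for GLY against CON. None of the 8 tested genes of lipase control was called, with *ANGPTL4*, a lipoprotein lipase inhibitor, at 0.69 (SE 0.37) and *GPLD1* at 0.22 (SE 0.09) for HC against LC, and *ANGPTL4* at 0.54 (SE 0.37) for GLY against CON. Nor was any of the 11 tested receptors and clearance genes. *VLDLR* gave −0.54 (SE 0.33) for HC against LC and −0.63 (SE 0.33) for GLY against CON, at group means under 2 CPM. In the other 5 comparisons 0 genes of the 6 lists were called. *APOC1*, *MIA2*, *SURF4*, *CETP*, *LIPG*, *GPIHBP1* and *CEBPA* were not analysed here.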

How the data were processed

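mRNA of liver biopsies of 31 cows was sequenced. The authors trimmed the reads (Trim Galore, Phred score of 20, minimum length of 30 nt), aligned them with HISAT2 2.1.0 to UMD3.1 (Ensembl release 93) and assigned unique alignments to genes with HTSeq 0.8.0. They deposited the resulting raw counts. A second deposited table of normalized values was not used. Groups and cow numbers came from the sample labels, and animals are the replicates. Cows of a group never differed by sampling noise alone (105 pairs, chi-square per gene at least 24.5).

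edgeR 4.0.16 in R 4.3.3 (quasi-likelihood F test, TMM scaling) was run on every gene whose reads over the 31 cows came to 20 or more. One model of the 4 groups and 1 additive model of treatment and CFP held all 31 cows. Standard errors were derived from each log2 fold change and its F statistic. Correlations used log2 CPM (prior count 2) and 100000 two-sided permutations within groups. CPM precision rests on 11675775 to 36675542 assigned reads per cow, and counting error is contained in the spread between cows. Alternatives were other normalizations, filters, prior counts, a robust fit, the 2 compared groups alone, DESeq2 1.42.0 (the authors' tool, in version 1.20.0), and each cow left out. Scripts were tested on simulated counts. Python 3.11.15, numpy 2.4.6, pandas 2.3.3, scipy 1.17.1 and matplotlib 3.10.9 were used.

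The 10 genes and the gene lists were chosen with earlier results of these data known. Named are the 10 genes, from each pathway list the called genes, the 2 with the smallest p for CFP and the 1 for GLY over all cows, and per gene the 2 most alike in pattern. Regulators and library measures correlated with the 10 genes, and other exceptions, were chosen after values were seen. A few genes that this rule or the lists cover are not reported here. Sequences, transcript lengths and promoters were not analysed here.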

Additional observations from a re-analysis of the deposited data

Results flagged for a closer look

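In the 40 combinations of gene and feeding group, 3 cows lay far from the rest of their group by Dixon's ratio (the gap to the nearest cow divided by the range of the group, both in log2 CPM), all in GLYLC, where 7 cows were tested. By chance about 1 in 20 groups is marked. GLYLC cow 912 was marked for *APOA1*, with 714 CPM against a median of 247 CPM in the other 6 cows, a ratio of 0.623 and a gap of 2.38-fold to the next cow. The same cow was marked for *APOH*, with 2732 CPM against a median of 3969 CPM, a ratio of 0.648 and a gap of 1.38-fold. GLYLC cow 102 was marked for *APOE*, with 791 CPM against a median of 2440 CPM, a ratio of 0.704 and a gap of 2.55-fold. Intestinal epithelium markers stood out in cow 912 (618 CPM), while cow 102 was within the 38.3 to 110 CPM of the other cows.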

How the results depend on the processing

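No paired analysis was possible because the labels number the animals and no number is shared between groups. Every count of called genes among the 10 was 0 under all alternatives except HC against LC over all cows, which ranged from 0 to 1 with single cows left out (1 without CONLC cow 169). Correlated pairs numbered 7, from 5 to 9 with single cows left out, and relations with library measures went from 4 to 2 without GLYLC cow 912. With no filter on low counts *APOF* (0.33, adjusted p = 0.110) and *NR2F1* (−0.54, adjusted p = 0.107) were no longer called. Upper-quartile normalization turned the sign of *MTTP* for GLY against CON in LC groups (−0.000676). The other 509 of 512 values under settings that kept every cow stayed on their side of zero and of the threshold. Settings for the pathway genes, regulators and library measures were added after the data were seen. With single cows left out, 20 fold changes that were not called changed sign. Their lowest and highest log2 values follow. For HC against LC in CON groups these were *APOE* from −0.010 to 0.14 and *APOM* from −0.14 to 0.013. In GLY groups the range was *APOM* from −0.16 to 0.12. GLY against CON in HC groups gave *APOH* from −0.073 to 0.00092, *MTTP* from −0.033 to 0.057. GLY against CON in LC groups gave *APOA4* from −0.47 to 0.49, *APOA5* from −0.25 to 0.070, *APOE* from −0.061 to 0.18, *APOH* from −0.11 to 0.0083, *MTTP* from −0.045 to 0.054. The interaction gave *APOA1* from −0.25 to 0.24, *APOA2* from −0.14 to 0.057, *APOC3* from −0.048 to 0.15, *APOE* from −0.031 to 0.21, *APOH* from −0.041 to 0.078, *APOM* from −0.086 to 0.19, *MTTP* from −0.038 to 0.064. HC against LC over all cows gave *APOA4* from −0.088 to 0.45, *APOM* from −0.11 to 0.017. GLY against CON over all cows gave *MTTP* from −0.014 to 0.035. Counts over all genes moved more. In GLY groups the 32 calls for HC against LC ranged from 0 (without GLYHC cow 32, GLYHC cow 154 or GLYLC cow 912) to 150 (without GLYLC cow 147) with single cows left out, and became 0 with the 2 groups alone, 8 in a robust fit, 66 with RLE normalization and 143 with DESeq2. Over all cows the 231 calls for HC against LC ranged from 83 (without GLYHC cow 32) to 404 (without CONLC cow 169), and became 55 at an adjusted p under 0.05 and 434 with DESeq2. For GLY against CON in LC groups the 10 calls became 0 in 23 of 31 runs with a cow left out and reached 41 without GLYLC cow 209. In CON groups 0 became at most 7 with a cow left out, 27 with DESeq2 on all cows and 80 with DESeq2 on the 2 groups alone. At these depths the smallest count of any of the 10 genes in a cow was 230 reads (*APOA4*).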

Other observations

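In HC against LC within GLY groups, further genes of the 6 lists had an unadjusted p under 0.05 without being called (chosen after their values were seen, edgeR's quasi-likelihood test). Those passing were 3 of 12 rows of other apolipoproteins, 1 of 17 assembly genes and 2 of 7 HDL genes. Also passing were 4 of 20 regulators, 1 of 8 lipase control genes and 0 of 11 receptor and clearance genes. Only some of them are named here. The cholesterol exporter *ABCA1* was at 71.8 CPM in GLYHC and 112 CPM in GLYLC, a log2 fold change of −0.65 (SE 0.26, adjusted p = 0.290). The apolipoprotein *SAA4* was at 87.2 and 182 CPM, with −1.06 (SE 0.43, adjusted p = 0.290), and the HDL-bound esterase *PON1* at 1539 and 1794 CPM, with −0.22 (SE 0.10, adjusted p = 0.378). The cholesterol esterifying enzyme *SOAT2* was at 15.1 and 9.20 CPM, with 0.71 (SE 0.26, adjusted p = 0.248), and *SREBF1*, which drives fatty acid synthesis genes, at 92.3 and 62.9 CPM, with 0.55 (SE 0.26, adjusted p = 0.382). *RXRA* gave 0.38 (SE 0.18, adjusted p = 0.387) and *ANGPTL4* 1.10 (SE 0.53, adjusted p = 0.389). In this comparison 0.201% of all tested genes were called, and 12.5% passed p under 0.05 before adjustment. The values above include GLYLC cow 912. Without it 0 of 15752 tested genes were called, and 1318 passed p under 0.05 before adjustment.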
